A study of Mus musculus with 2 samples.

Results

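The AP-1 and Egr immediate early genes examined here are Fos, Fosb, Fosl1 and Fosl2 of the Fos family, Jun, Junb and Jund of the Jun family, and Egr1, Egr2 and Egr3 of the Egr family. They were chosen by gene symbol. All 10 were listed in both libraries, among 16302 genes in the joined tables and 12646 genes analysed. Jund was the only one of them with a ratio below 2/3 in astrocytes without β-arrestin 1 (β-arr1), since its level was 43.2 FPKM in WT against 15.7 FPKM in β-arr1 KO, which gave a ratio of 0.363. Its closest relatives Jun and Junb were within 5% of the WT level. Fosb and Egr3, which were scarce in both libraries, were the 2 with ratios above 3/2. Of all analysed genes, 9.56% had a ratio above 3/2 and 8.28% one below 2/3.

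RNA-seq was done on astrocytes cultured from the dentate gyrus (DG) of the adult hippocampus, where astrocytes form part of the niche of neural precursors. The WT library came from C57BL/6 mice of wildtype genotype and the β-arr1 KO library from C57BL/6 mice with the Beta-arr1 knockout (β-arr1-/-), and the labels give neither age nor sex. Both cultures were grown in medium with serum, insulin and transferrin and were shaken to detach neurons, oligodendrocyte progenitors and dividing cells, and no stimulation is given. Each genotype is a single library of pooled cDNA (1 of WT and 1 of β-arr1 KO), so no value has a replicate error and no test of genotype was possible. The knockout mice lack the gene in every cell type and from birth on, so the cells carried the deletion before culture, and other cells of the dentate gyrus may persist in such cultures.

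AP-1 is a transcription factor made of a pair of leucine zipper proteins, usually a Fos protein bound to a Jun protein, and Jun proteins can also pair with each other. Egr proteins are zinc finger transcription factors that bind GC-rich sites. Many of these genes are switched on within minutes by growth factors, serum or neuronal activity through ERK signalling, whereas Jund is known for steady expression in resting cells. In astrocytes, AP-1 is linked to the response to injury and inflammation.

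Levels are in FPKM, fragments scaled for transcript length and for library depth, so that genes of different length can be set side by side. The ratio is the FPKM in β-arr1 KO divided by that in WT, and a gene was counted as past the limits above 3/2 or below 2/3. Intervals are 95% exact (Clopper-Pearson) intervals on estimated fragments, which cover counting error only and not the difference between animals or cultures. About 9.54 M fragments were estimated for WT and 9.76 M for β-arr1 KO. Arrb1, the targeted gene, was at 7.62 FPKM in WT astrocytes and 2.72 FPKM in KO astrocytes (ratio 0.358, interval 0.301 to 0.424). Among the marker lists, summed levels went from 396 to 420 FPKM for 10 of 10 astrocyte markers, from 1232 to 933 FPKM for 10 of 10 microglia markers, from 107 to 153 FPKM for 10 of 10 oligodendrocyte lineage markers, and from 86.4 to 107 FPKM for 9 of 10 neuron markers listed. The astrocyte marker Gfap was at 189 FPKM in WT against 192 FPKM in β-arr1 KO, while 4 of the 10 astrocyte markers (Aqp4, S100b, Aldoc and Slc1a2) were above 3/2, with a list median log2 ratio of 0.34. The 8 endothelial markers went from 46.8 to 38.3 FPKM, 7 of 8 fibroblast and mural cell markers from 3028 to 2778 FPKM, and the 8 skeletal muscle markers from 37.8 to 122 FPKM. Single genes carried the first 2 of these sums, and Des, at 29.7 and 41.9 FPKM, most of the WT skeletal muscle sum. Without regard to level, the endothelial median log2 ratio was 0.51, with Cdh5 at 31.8 and 16.1 FPKM, and the fibroblast and mural median was -0.76, with Acta2 at 2478 and 2469 FPKM and Col1a1, Col1a2, Dcn and Rgs5 below 2/3. The skeletal muscle median was the largest, at 3.05, with 4 of 5 analysed markers above 3/2 and Mylpf at 1.08 and 38.7 FPKM. Medians were 0.63 for oligodendrocyte lineage, 0.18 for neuron and -0.27 for microglia markers. The neuron median rests on 4 analysed genes. Tubb3 (44.7 and 59.8 FPKM) and Stmn2 (36.6 and 43.4 FPKM) carried most of the neuron sum, while Camk2a went from 2.86 to 1.55 FPKM. Rbfox3, Snap25, Syt1, Nefl and Gad1 did not reach 1 FPKM in either library. Markers listed at no value were Myod1 and Mog in WT, and Nefl, Lum and Myh3 in β-arr1 KO. The Mog locus was overlapped in WT by a row named Zfp57, and the Myh3 locus in β-arr1 KO by a row named Myh8. No direction can therefore be given for Mog, at 0.0662 FPKM in β-arr1 KO, or for Myh3, at 0.0180 FPKM in WT. Map2 and Pdgfrb were not used here. In such bulk RNA, fewer cells of a type and less RNA per cell cannot be told apart, and the part of these markers in the results below was not tested.

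The promoters of the 3 Jun genes are shown because 1 of them parted from the other two, and that of Fosb because it had the highest ratio. They are RefSeq sequences in build GRCm38.p6, from 250 bases before to 50 bases after the annotated start, read along the gene's strand. They lie at chr8:70697489-70697788 for Jund (+ strand), chr4:95052173-95052472 for Jun (− strand), chr8:84978699-84978998 for Junb (− strand) and chr7:19309996-19310295 for Fosb (− strand). Capitals mark matches on either strand to the TATA box with the letters TATAAA, to the CCAAT box, or to the GC box with the letters GGGCGG.
Jund: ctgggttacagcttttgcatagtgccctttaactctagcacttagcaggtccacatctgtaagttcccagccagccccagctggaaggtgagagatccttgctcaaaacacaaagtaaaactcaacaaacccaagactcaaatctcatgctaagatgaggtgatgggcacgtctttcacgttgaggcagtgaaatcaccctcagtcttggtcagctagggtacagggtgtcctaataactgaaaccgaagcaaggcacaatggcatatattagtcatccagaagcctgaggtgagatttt
Jun: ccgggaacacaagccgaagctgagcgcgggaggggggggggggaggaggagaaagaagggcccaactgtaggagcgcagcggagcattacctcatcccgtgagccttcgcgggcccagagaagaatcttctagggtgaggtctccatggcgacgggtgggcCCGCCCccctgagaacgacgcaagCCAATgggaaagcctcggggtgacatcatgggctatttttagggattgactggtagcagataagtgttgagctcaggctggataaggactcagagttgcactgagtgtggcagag
Junb: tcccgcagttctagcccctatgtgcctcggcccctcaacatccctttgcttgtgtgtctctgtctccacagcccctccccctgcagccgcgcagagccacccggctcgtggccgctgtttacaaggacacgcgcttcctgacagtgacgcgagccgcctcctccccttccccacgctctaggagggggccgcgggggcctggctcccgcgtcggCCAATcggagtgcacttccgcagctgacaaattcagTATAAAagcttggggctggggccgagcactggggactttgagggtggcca
Fosb: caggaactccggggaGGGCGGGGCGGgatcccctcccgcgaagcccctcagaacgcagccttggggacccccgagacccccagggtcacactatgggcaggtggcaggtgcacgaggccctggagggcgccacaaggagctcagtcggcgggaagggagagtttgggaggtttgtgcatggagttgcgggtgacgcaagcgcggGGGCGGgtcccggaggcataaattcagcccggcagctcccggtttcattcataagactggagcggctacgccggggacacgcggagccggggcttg

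Of 7 motifs searched on both strands, the Jund window held none. The others searched were the cyclic AMP response element with the letters TGACGTCA, the AP-1 site with the letters TGACTCA, the Egr site with the letters GCGTGGGCG, and the CArG box, which binds serum response factor. The window is at the start of the longer annotated Jund transcript and has 46.7% GC, against 60% for Jun, 65.3% for Junb and a median of 52.7% over 32851 mouse promoters. The start of a shorter coding transcript of Jund, 1219 bases downstream, lies outside this window and was not searched. The Jun window held a CCAAT box 65 bases before the start and a GC box 89 bases before it. In Junb, a CCAAT box lay 36 bases before the start, and a TATA box began at the first base of the annotated transcript. Fosb had 3 GC boxes, which began 235, 230 and 46 bases before the start, the first 2 of them overlapping.

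Among all promoters, 13.6% held the TATA box, 37.4% the CCAAT box, 35.7% the GC box, 1.79% the cyclic AMP response element, 5.20% the AP-1 site, 0.612% the Egr site and 1.63% the CArG box. Promoter windows were searched for 7 of the 10 genes. Egr1 was left out of the search, and no windows are given for Fosl1 and Egr3. The Fos window (chr12:85473640-85473939) held a TATA box 33 bases and a GC box 74 bases before the start, and that of Fosl2 a GC box 75 bases before it. Egr2 has 5 overlapping or neighbouring windows, 4 of which held a CArG box. Windows that overlap share the same CArG box, so these are not 4 separate sites. A match is a description of the letters and no evidence that a factor binds there.

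In the Jun family, the level of Jun was 37.0 FPKM in WT astrocytes and 35.3 FPKM in KO astrocytes, with about 1065 and 1045 fragments. Jun encodes c-Jun, the classical partner of c-Fos and a substrate of JNK kinases. Its ratio was 0.956 (interval 0.877 to 1.04). Junb, whose product often opposes c-Jun at shared targets, was the highest member in both libraries, at 49.5 FPKM in WT against 50.3 FPKM in β-arr1 KO. The ratio for this gene was 1.02 (0.919 to 1.12). For both genes the intervals of the 2 libraries overlapped.

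Jund encodes JunD, the Jun protein known for restraining proliferation in several cell types. Its level was 43.2 FPKM in WT astrocytes (interval 40.7 to 45.8) and 15.7 FPKM in KO astrocytes (14.2 to 17.3), from about 1115 and 416 fragments. The ratio was 0.363 (0.324 to 0.407), a log2 ratio of -1.46. The library intervals lay far apart, and the upper end of the ratio's interval was below 2/3. In WT, Jund was the second highest of the 10 genes, and in β-arr1 KO it was the fourth, or the fifth where rows overlapping Fosl1 are summed. Per unit of Junb, Jund went from 0.872 to 0.311, and per unit of Jun from 1.17 to 0.443.

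**Figure D1:**
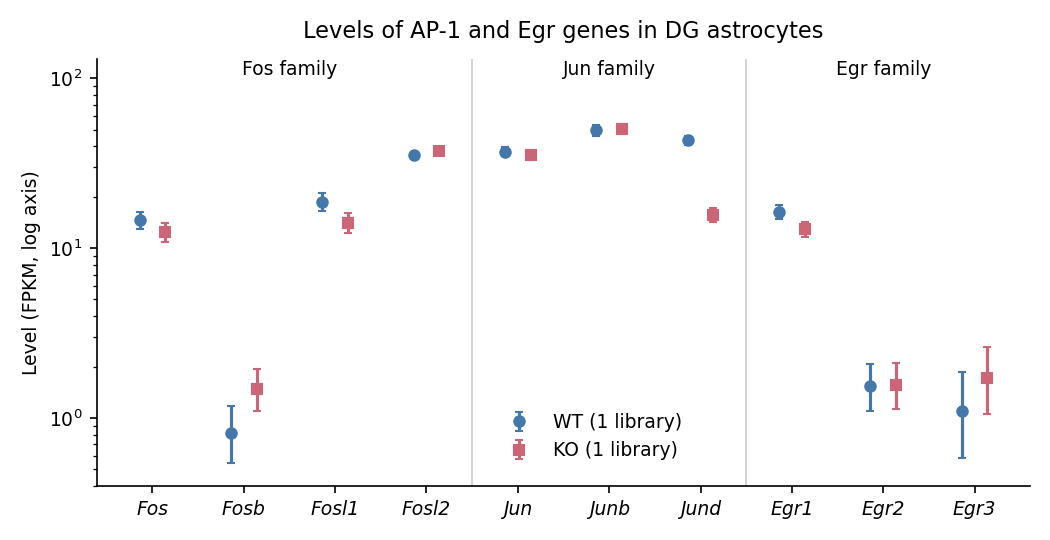
Level of each of the 10 genes (FPKM, log axis) in the WT library (circles) and the β-arr1 KO library (squares), with 95% counting intervals as bars. Jund stands at 43.2 FPKM in WT against 15.7 FPKM in β-arr1 KO with bars far apart, while Fosb, Egr2 and Egr3 are below 2 FPKM in both.

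The Jund row had the same bounds in both tables, chr8:73221638-73224515 (mm9, + strand), which are those of the longest annotated transcript, a single exon of 2878 bases. Jun (chr4:94715727-94718913, − strand) and Junb (chr8:87500808-87502647, − strand) also have a single exon in their longest annotated transcript, and their bounds too were equal in the 2 tables. The GC content of the Jund transcript, 62.7%, was close to that of Junb at 62.6%. Among 505 genes whose transcript GC was 60 to 65% and whose level reached 1 FPKM in both libraries, the median log2 ratio was 0.00402 and 6.53% were below 2/3. No row of another gene overlapped Jund in either library. A shorter coding transcript of 1559 bases, which starts 1219 bases downstream, would give about 572 and 214 fragments and an interval of 0.309 to 0.426 for the same ratio.

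The nearest genes on either side of Jund with at least 1 FPKM in both libraries did not share its difference in level. Genes below that level in either library, also closer ones, were not looked at. Lsm4, 19.0 kb before it, had a ratio of 1.12 (0.942 to 1.32), and Pgpep1, 38 kb before, one of 0.812 (0.666 to 0.988). Rab3a, 54.1 kb after Jund, had a ratio of 1.13 (0.890 to 1.45). That of Mpv17l2, 58.0 kb after, was 0.997 (0.849 to 1.17). All of them stayed between the limits.

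Ratios as low as that of Jund were uncommon among genes that reached 10 FPKM and were listed in both libraries. Of 6667 genes listed in both libraries with at least 10 FPKM in one of them, 46 (0.690%) had a ratio at or below that of Jund. Over all 12646 analysed genes, including those absent from the KO table, 2.97% had a lower ratio. With 1 library per genotype a difference between animals or cultures and one between genotypes cannot be told apart.

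**Figure D2:**
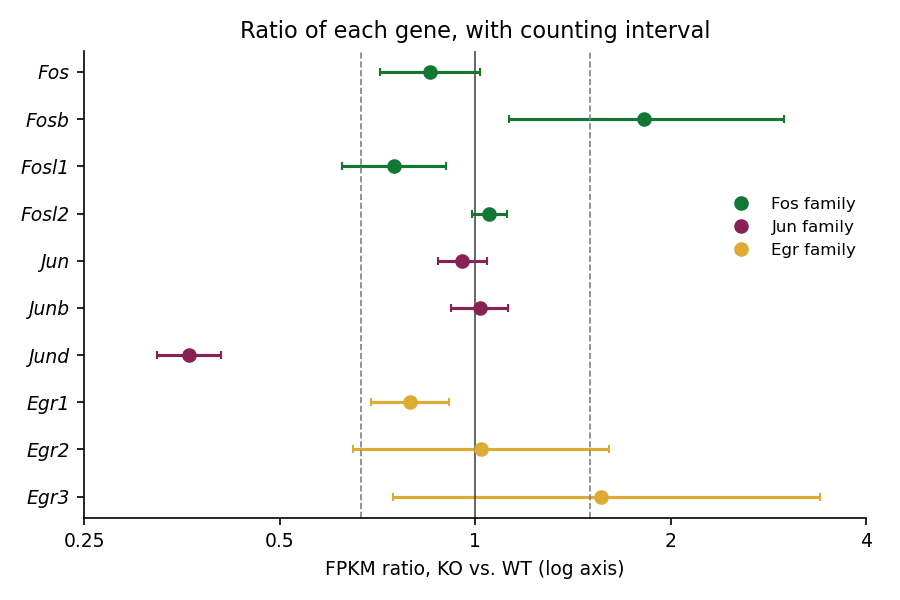
FPKM ratio of β-arr1 KO vs. WT (log axis) for each gene with its 95% counting interval, where the solid line marks equal levels and the dashed lines mark 2/3 and 3/2. Jund alone has its whole interval below 2/3, and the wide bars of Fosb and Egr3 reach from below 3/2 to about 3 or more.

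In the Fos family, Fosl2 was the most abundant member, at 35.4 FPKM in WT astrocytes and 37.2 FPKM in KO astrocytes, with a ratio of 1.05 (0.988 to 1.12). Fosl2 encodes Fra-2, a Fos protein without the strong activation domain of c-Fos. Its row (chr5:32438004-32460212 in WT) began 841 bases later in β-arr1 KO. Fos (chr12:86814851-86818219), the prototype of the immediate early genes, was at 14.6 FPKM in WT (12.9 to 16.5) against 12.4 FPKM in β-arr1 KO (10.9 to 14.1). The ratio for this gene was 0.852 (0.713 to 1.02), so the difference in Fos was within counting error.

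Fosb (chr7:19888045-19895394, − strand), known for the long-lived splice form ΔFosB, was at 0.813 FPKM in WT astrocytes and 1.48 FPKM in KO astrocytes. These levels rest on about 28 and 52 fragments. The ratio was 1.82 (1.13 to 2.99), the highest of the 10 genes, and its interval left out 1 but reached below 3/2. Gene-level values do not separate the splice forms.

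Fosl1, which encodes Fra-1, was at 18.7 FPKM in WT against 14.1 FPKM in β-arr1 KO, which gave a ratio of 0.750 (0.624 to 0.900). Its rows did not have the same bounds. They were chr19:5447698-5457527 in WT and chr19:5447698-5455938 in β-arr1 KO. The KO table also listed Ccdc85b at chr19:5453163-5457563 with 13.5 FPKM, a gene not listed in WT whose span the WT row of Fosl1 covers in large part. Summing the overlapping rows gave 27.6 FPKM in β-arr1 KO and a ratio of 1.47 in place of 0.750, so no direction can be given for Fosl1.

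In the Egr family, Egr1 carried most of the level. It was at 16.3 FPKM in WT astrocytes (14.9 to 17.9) and 13.0 FPKM in KO astrocytes (11.7 to 14.3), with the same row bounds in both libraries (chr18:35020861-35024610). Egr1 encodes a zinc finger factor, also named Zif268, which is widely used as a marker of recent cell activation. The ratio of 0.794 had an interval of 0.691 to 0.913, which left out 1 and lay inside the limits.

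Egr2 (chr10:67000617-67004936), known from myelinating Schwann cells as Krox20, was at 1.54 FPKM in WT against 1.57 FPKM in β-arr1 KO. The ratio of 1.02 had an interval of 0.649 to 1.60. Egr3 (chr14:70477252-70479964 in WT) was at 1.09 FPKM in WT astrocytes and 1.71 FPKM in KO astrocytes, from about 13 and 21 fragments. The ratio was 1.56, past the limit, but the interval of 0.747 to 3.40 included 1, and the KO row ended later, at 70480769. A difference in Egr3 was not detectable at this depth.

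Of the 10 genes, 2 were above 3/2 (Fosb and Egr3), 1 was below 2/3 (Jund) and 7 lay between. Among all genes that reached 10 FPKM in 1 or both libraries, 6.04% were above 3/2 and 5.19% below 2/3, against 9.56% and 8.28% of all analysed genes. Counts of 2 and 1 among 10 genes do not set the group apart from these shares. The median log2 ratio was -0.02 over the 10 genes and 0.02 over all analysed genes, and 5 genes were higher and 5 lower in β-arr1 KO, or 6 and 4 with the row that overlaps Fosl1 summed. The counting interval included 1 for 6 genes, lay below 1 for Jund, Egr1 and the Fosl1 row as listed, and above 1 for Fosb. The share of all analysed genes whose interval left out 1 was not computed, so these interval counts do not set the group apart.

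**Figure D3:**
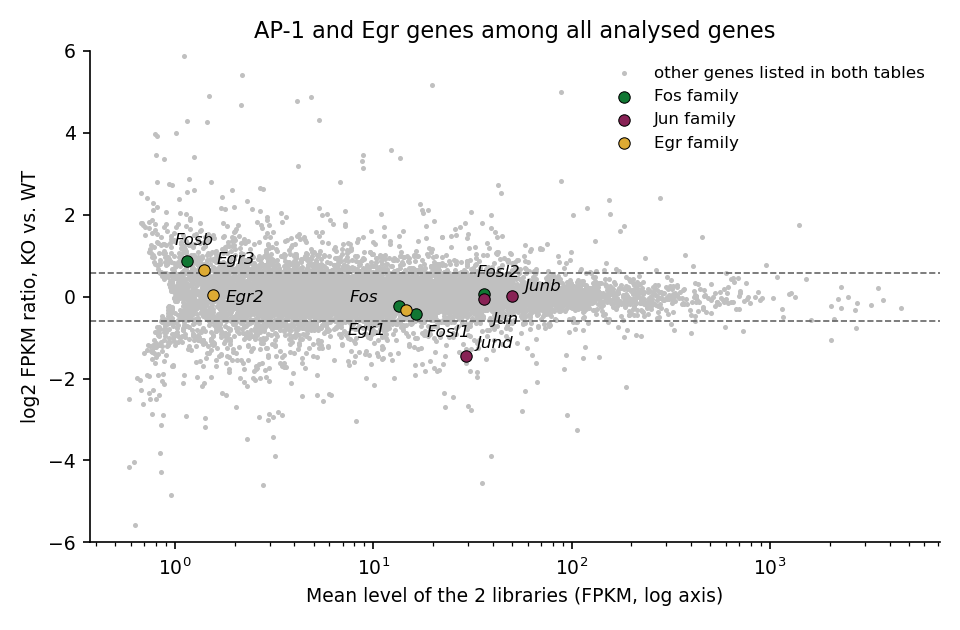
Log2 FPKM ratio of β-arr1 KO vs. WT against the mean level of the 2 libraries (FPKM, log axis), with grey points for genes of at least 1 FPKM in one library that were listed in both, coloured points for the 10 genes, and dashed lines at ratios of 3/2 and 2/3. Fosb and Egr3 lie at the low end of the level axis, where grey points spread widely, and Jund lies at -1.46 below the main cloud.

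The order of levels in WT was Junb, Jund, Jun, Fosl2, Fosl1, Egr1, Fos, Egr2, Egr3 and Fosb. In that order, Jun and Fosl2, Fosl1 and Egr1, Egr1 and Fos, Egr2 and Egr3, and Egr3 and Fosb had overlapping counting intervals. In β-arr1 KO the order was Junb, Fosl2, Jun, Jund, Fosl1, Egr1, Fos, Egr3, Egr2 and Fosb, with overlapping intervals for every pair of neighbours except Junb and Fosl2, Jun and Jund, and Fos and Egr3. With the overlapping row summed, Fosl1 stood above Jund in β-arr1 KO. The 7 genes above 10 FPKM in WT were also above it in β-arr1 KO, and the other 3 were below 2 FPKM in both.

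Summed over each family, the Fos genes were at 69.6 FPKM in WT against 65.2 FPKM in β-arr1 KO, which gave a ratio of 0.937 (0.887 to 0.991). With the row that overlaps Fosl1 added, this ratio was 1.13. The Jun genes summed to 129.7 FPKM in WT astrocytes and 101.3 FPKM in KO astrocytes, a ratio of 0.781 (0.739 to 0.826). The difference of -28.4 FPKM lay almost wholly in Jund, since Jun and Junb together were at 86.5 FPKM in WT against 85.7 FPKM in β-arr1 KO. The Egr genes summed to 19.0 and 16.2 FPKM, a ratio of 0.857 (0.752 to 0.976).

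The make-up of the Jun family differed most. Jund was 33.3% of the Jun sum in WT and 15.5% in β-arr1 KO, while Junb went from 38.2% to 49.7% and Jun from 28.5% to 34.9%. In the Fos family, Fosl2 went from 50.9% to 57.1%, Fosl1 from 27.0% to 21.6%, Fos from 21.0% to 19.1% and Fosb from 1.17% to 2.27%. Egr1 was 86.1% of the Egr sum in WT and 79.8% in β-arr1 KO. The Fos sum per unit of the Jun sum was 0.536 in WT and 0.644 in β-arr1 KO. With the row that overlaps Fosl1 summed in β-arr1 KO, Fosl1 was 35.1% of the Fos sum, Fosl2 47.3%, Fos 15.8% and Fosb 1.88%, so that the directions for Fosl1 and Fosl2 turned, and the Fos sum per unit of the Jun sum was 0.777. These are shares of RNA and say nothing of the proteins that pair.

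**Figure D4:**
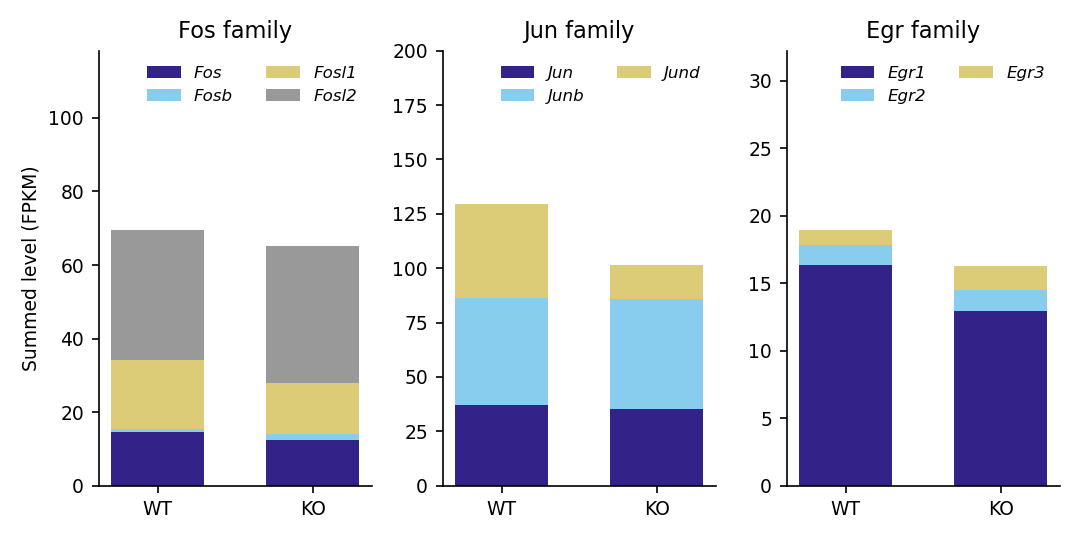
Summed level (FPKM, linear axis from 0) of the Fos, Jun and Egr families in the WT and β-arr1 KO libraries, stacked by gene, with 1 library per bar and no error bars. The Jun bar is lower by 28.4 FPKM in KO, and the Jund segment accounts for nearly all of it.

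Genes that act with, before or after AP-1 and Egr were taken from 8 lists of 104 genes, of which 100 were analysed. Of these, 7 were above 3/2 and 6 below 2/3, against 9.56% and 8.28% of all analysed genes. Among the 65 of them whose rows had equal bounds in the 2 tables, 4 were above (Csrnp1, Mef2c, Spry2 and Hbegf) and 3 below (Batf, Mapk12 and Spp1). Other leucine zipper partners of AP-1 had 11 of 12 analysed genes between the limits and a median log2 ratio of -0.10. Atf3, a partner induced by stress, was at 12 FPKM in WT astrocytes and 10.2 FPKM in KO astrocytes, and Maff was at 198 and 215 FPKM. The exception was Batf, a scarce partner without an activation domain, at 1.72 and 0.692 FPKM (interval of the ratio 0.113 to 1.20).

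Other immediate early transcription factors had a median log2 ratio of -0.02, with 11 of 13 analysed genes between the limits. Nr4a1, a nuclear receptor induced together with Fos, was at 5.61 FPKM in WT against 5.73 FPKM in β-arr1 KO. Klf6 was at 42.9 and 43.7 FPKM, and Ier2 at 12.9 and 12.3 FPKM. Csrnp1 was just past the limit, at 11.9 and 17.9 FPKM (ratio 1.503, interval 1.30 to 1.74), and fell inside it at 1.48 when the libraries were rescaled to a median ratio of 1. The other gene past it was Npas4, named here after its values were seen, at 1.15 FPKM in WT astrocytes and 4.05 FPKM in KO astrocytes. Its row ended at a higher coordinate in β-arr1 KO (5001529 against 4989971 in WT).

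Other immediate early genes had a median log2 ratio of 0.07, and 23 of 24 lay between the limits. Dusp1, a phosphatase that switches off MAP kinases, was at 93.2 FPKM in WT against 118 FPKM in β-arr1 KO. Arc, a synaptic immediate early gene, was at 1.60 and 1.55 FPKM. Zfp36, whose product destabilises inflammatory mRNAs, was at 18.4 FPKM in the WT table and absent from the KO table, where no row overlapped its locus.

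Regulators that act before these genes were mostly between the limits. For SRF, its ternary complex partners and CREB regulators, 12 of 14 genes were between and the median log2 ratio was -0.00256. Srf was at 20.6 FPKM in WT astrocytes and 19.9 FPKM in KO astrocytes. Mef2c went from 4.81 to 7.44 FPKM (1.55, interval 1.33 to 1.80). Crtc2 went from 98.5 to 14.3 FPKM, but its WT row (chr3:90035519-90068047) covered loci that the KO table listed on their own as Jtb at 23.4 FPKM and Slc39a1 at 51.3 FPKM. Among 10 kinases of the ERK, JNK and p38 groups, 7 lay between the limits and the median log2 ratio was -0.16, or -0.04 for those that reached 5 FPKM. Mapk13 went from 24.8 to 50.1 FPKM, but its KO row spanned Mapk14, which was at 25.8 FPKM in the WT table and absent from the KO table. The levels of Crtc2, Mapk13 and Mapk14 can therefore not be compared between the tables. Mapk12, also below 2/3, was at 3.24 and 1.67 FPKM.

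Genes induced by ERK signalling had the highest median of the 8 lists, a log2 ratio of 0.31 against 0.02 over all genes. All 9 had a ratio above 1, from 1.02 for Dusp4 to 1.54 for Spry2, and 1 of them was above 3/2. The intervals of Dusp4 (0.865 to 1.19) and Spry4 (0.983 to 1.34) included 1. Of all analysed genes, 50.4% had a ratio lower than the 1.02 of Junb. The 10 AP-1 and Egr genes, many of which ERK signalling also switches on, were split, with 5 higher and 5 lower as listed. A difference in ERK signalling was not tested. Spry2, a feedback inhibitor of receptor tyrosine kinase signalling, was at 15.9 FPKM in WT against 24.6 FPKM in β-arr1 KO (interval 1.33 to 1.79). Dusp6, a phosphatase for ERK, was at 26.0 and 36.0 FPKM. The Egr corepressors differed from each other: Nab1 went from 16.7 to 11.5 FPKM, a ratio of 0.689 (0.607 to 0.783) just inside the limit, and Nab2 from 23.8 to 24.4 FPKM.

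Genes known as AP-1 targets had 13 of 16 analysed genes between the limits and a median log2 ratio of 0.12. Spp1, the gene of osteopontin, was at 933 FPKM in WT astrocytes and 521 FPKM in KO astrocytes (ratio 0.559, interval 0.542 to 0.576). Microglia also express Spp1, and the microglia marker sum was lower in the same direction, by a ratio of 0.757. The part of this in the result was not tested. Hbegf, an EGF receptor ligand, was at 98.5 and 149 FPKM (1.51, interval 1.43 to 1.60), and its ratio was 1.49 after the same rescaling that took Csrnp1 inside the limit. Mmp3 was listed at 5.23 FPKM in β-arr1 KO only, at a locus overlapped in WT by a row named Mmp10 with 5.69 FPKM, so it gives no ratio. Vim and Timp1, abundant targets, were between the limits with ratios of 1.16 and 1.08.

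**Figure D5:**
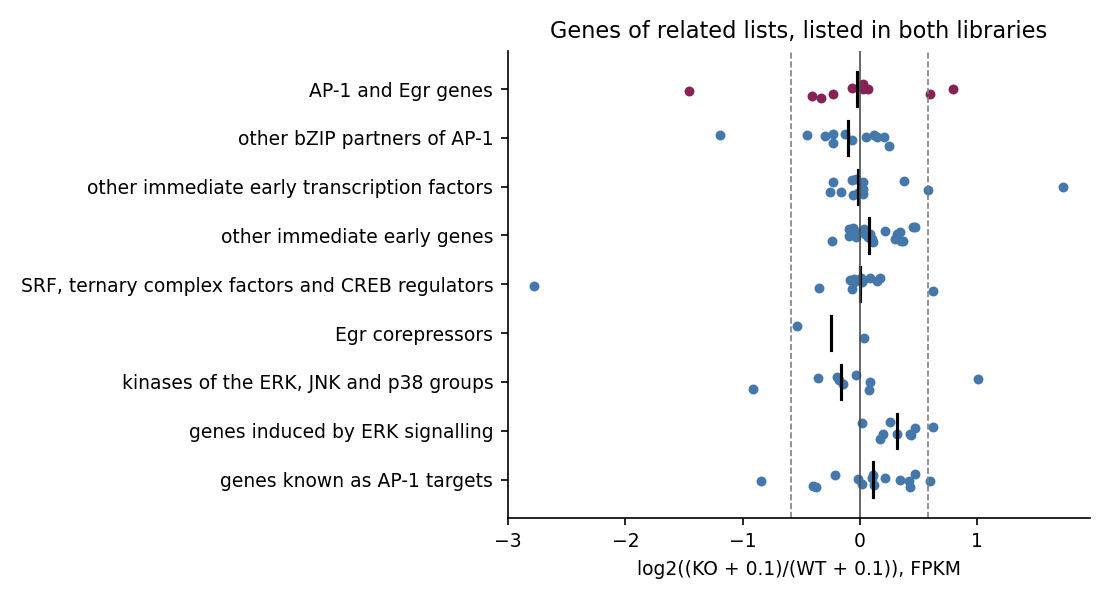
Log2((KO + 0.1)/(WT + 0.1)) of FPKM for each analysed gene of the AP-1 and Egr set and of the 8 related lists that was listed in both libraries, with short black lines at list medians over all analysed genes and dashed lines at ratios of 3/2 and 2/3. Jund is the leftmost point of the top row, and the genes induced by ERK signalling all lie above 0 with a median of 0.31.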

How the data were processed

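RNA was measured in 1 WT and 1 β-arr1 KO library of DG astrocytes. The authors sequenced paired reads of 100 bases, aligned them to mm9 with TopHat (version 1.4.0 per the submitters' processing notes) and estimated expression with Cufflinks. Its version and annotation are not given in the sources used here. The deposited FPKM values are scaled for transcript length and library size, so fragments were estimated. Low values of single-transcript genes fall on steps of 1 to 3 fragments, and the depth that best matched these steps was taken. Within 5% of a step lay 68.4% of 462 low genes for WT and 67.2% of 478 for β-arr1 KO.

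The tables were joined by symbol, and genes that reached 1 FPKM in 1 or both libraries were analysed. Ratios used deposited FPKM without a pseudocount, list medians a pseudocount of 0.1. A gene missing from either table was taken as 0 FPKM there, and was so counted past the limits without a measured ratio. Intervals used the longest annotated transcript of GENCODE on NCBIM37 (mm9) for both libraries and do not cover reads shared between genes or rows of unequal bounds. The file starts equalled annotated starts in 38.4% and 38.7% of genes after adding 1, against 3.09% and 3.14% without it, and coordinates count from 1. With 1 library per genotype no p-value was computed. The members and lists were chosen with earlier results of these data known. Beside the members and Arrb1, list genes past the limits with at least 5 FPKM in the higher library were named (at most 4 per direction), and other named list genes are examples chosen after their values were seen, within the limits except Batf, Npas4 and Mapk12. The study's other experiments were not analysed here. Computations were tested on simulated data. Alternatives covered minimum level, pseudocount, scaling, rows sharing a symbol, limits and row bounds. Computation ran in Python 3.11.15 (matplotlib 3.10.9, scipy 1.17.1, pandas 2.3.3, numpy 2.4.6).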

Additional observations from a re-analysis of the deposited data

How the results depend on the processing

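The ratio of Jund stayed below 2/3 under all 6 alternatives of pseudocount, scaling and repeated symbols (0.358 to 0.377). At its level these alternatives could change the ratio only slightly, so they do not test the difference. Fosb (1.37 to 1.83) and Egr3 (1.29 to 1.57) dropped below 3/2 with a pseudocount of 1 FPKM, and the other 7 genes stayed between the limits. The count of members above 3/2, 2 as reported, was 0 with that pseudocount, with a minimum of 5 FPKM and with limits of 2 and 1/2, and 1 with a minimum of 1 FPKM in both libraries. Of the genes in related lists, 3 were above with limits of 2 and 1/2, and 3 below with 1 FPKM in both libraries. Of all genes, 2070 and 1899 were above and below with a minimum of 0.1 FPKM, 640 and 539 with 5 FPKM, 750 and 622 with 1 FPKM in both, and 604 and 559 with limits of 2 and 1/2. Added after seeing the data, a restriction to genes whose bounds were equal in the 2 tables left 7 members, of which 1 was above, 4 list genes above and 3 below, and 551 and 464 of 7338 genes. Also added was the summing of overlapping rows, which took Fosl1 (1.47) and the Fos family sum (1.13) from below to above 1. With the libraries rescaled to a median ratio of 1 or an equal upper quartile, 5 list genes were above 3/2, since Csrnp1 and Hbegf came inside the limit. The median log2 ratio of the kinases was -0.04 with a minimum of 5 FPKM, and that of genes induced by ERK signalling 0.47 with equal bounds. Rescaling the libraries shifted the median log2 ratio by -0.0191 to 0.00439. No paired analysis was possible because each genotype has 1 library, and none could be left out.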
